A study of Mus musculus with 18 samples.

Results

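The 37 genes described here encode enzymes and regulators of fatty acid and cholesterol synthesis, and they were taken by gene symbol from the 19938 genes that had a probe set of their own on the array. The fatty acid arm holds 20 genes, of which 7 serve fatty acid synthesis itself, 8 elongation and desaturation, and 5 the assembly of glycerolipids. The sterol arm holds 12 enzymes of the cholesterol pathway, and 5 further genes encode the SREBP regulators that act on both arms. All 37 were measured, and none lay among the dimmest 40% of genes by mean level. A single probe set represented 33 of them, and for Acaca, Me1, Idi1 and Fdft1 the brighter of several was kept. Agpat6 is listed on the platform under its newer symbol Gpat4.

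Fatty acids are built in the cytosol from acetyl-CoA, which is carboxylated and then condensed by fatty acid synthase, and the products are elongated, desaturated and joined to glycerol. Cholesterol is built from the same acetyl-CoA through mevalonate, isoprenoids, squalene and lanosterol. Both routes are switched on by SREBP transcription factors, which Insig proteins hold with their escort Scap in the endoplasmic reticulum while sterols are plentiful. In the mammary gland the fatty acid route is best known for making milk fat during lactation.

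RNA came from mammary tumours of mice with the MMTV-neu transgene, which drives the rat ErbB2 proto-oncogene from a mammary tumour virus promoter and was carried on an FVB/N background. The labels describe every tumour as luminal and ERBB2-positive. Mice lacking Snai2 (KO), a zinc finger transcription factor known from epithelial-mesenchymal transition, derive from a B6;129S1 line, and WT mice had intact Snai2. The sources used here give neither the ages of the mice nor whether KO and WT mice were littermates. KO groups were parous mice with metastasis (3 arrays), parous mice without metastasis (3), a single nulliparous mouse with metastasis (1), and nulliparous mice without metastasis (3). The WT groups were parous mice with metastasis (4) and nulliparous mice with metastasis (4). All WT mice had metastasis, so a comparison of KO tumours without metastasis with WT tumours cannot tell genotype and metastasis apart.

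Each array was deposited as log2 expression values. Replicates 2 and 3 of parous KO mice with metastasis were nearly identical (SD of their difference 0.102, against 0.285 for the next closest of 153 pairs), so their mean counted as 1 sample and 17 samples entered the tests. Snai2 was dim in both genotypes and lower in KO (6.54 ± 0.17, SD, n = 9, range 6.28 to 6.79) than in WT tumours (6.84 ± 0.17, SD, n = 8, range 6.68 to 7.09), with overlapping ranges. Erbb2 was bright in both, at 12.81 ± 0.11 (SD, n = 9) and 12.71 ± 0.14 (SD, n = 8). Luminal epithelial markers (9 genes such as Epcam and Krt8), which the luminal label calls for, had sample means from 10.82 to 11.72. In bulk tumour RNA, fewer cells of a type and less RNA per cell cannot be told apart.

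Promoter sequences of the same genes were set out first, because many members answer to the same factors. SREBPs are known to act at sterol regulatory elements together with NF-Y, which binds the CCAAT box. RefSeq promoters of build GRCm38.p6, each from 250 bases before to 50 bases after a start, were found for 28 member genes (39 promoters). CCAAT on either strand occurred in 23 of these 39 promoters (59%), against 37.4% of all 32851 promoters in the same table. In the sterol arm 9 of 12 promoters held it (75%), covering 9 of 9 genes, and in the fatty acid arm 52.9% of 17 promoters. The sterol regulatory element core TCACNCCAC on either strand was in 1 promoter, that of Hmgcs1, where it starts 137 bases before the start (2.56% of member promoters and 1.24% of all). The stricter form ATCACNCCAC was in 0 of 39 and in 0.234% of all promoters. The E-box CACGTG, which reads the same on both strands, was in 6 of 39 (15.4%) and in 7.15% of all. By gene it was in 5 of 28, and in 2187 of 27025 over the whole table. The Scap promoters overlap, so the same E-box was counted in each of them. The stricter form contains the core, and CCAAT boxes may overlap on opposite strands. A match describes letters in this window and is not a binding site shown by these data.

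The promoters of 4 genes named in the parity comparisons below are shown as examples: Hmgcs1 and Mvk of the sterol arm, and Elovl5 and Fasn of the fatty acid arm. Of these only Elovl5 passed a parity test, in WT mice. Dgat2 was among the members for which no promoter was found. Each is the 250 bases before the start, read 5′ to 3′ on the gene's strand, with the searched motifs in capitals (ATTGG is CCAAT on the other strand, TCACCCCAC the sterol regulatory element core, CACGTG the E-box). The Hmgcs1 stretch is chr13:119690101-119690350 on the plus strand, that of Mvk chr5:114444019-114444268 on the plus strand, that of Elovl5 chr9:77917115-77917364 on the plus strand, and that of Fasn chr11:120824548-120824797 on the minus strand.
Hmgcs1: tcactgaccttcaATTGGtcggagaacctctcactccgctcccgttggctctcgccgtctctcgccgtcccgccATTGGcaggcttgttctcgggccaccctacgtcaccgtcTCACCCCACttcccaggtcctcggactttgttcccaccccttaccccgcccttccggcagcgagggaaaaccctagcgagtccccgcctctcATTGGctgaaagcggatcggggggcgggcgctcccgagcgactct
Mvk: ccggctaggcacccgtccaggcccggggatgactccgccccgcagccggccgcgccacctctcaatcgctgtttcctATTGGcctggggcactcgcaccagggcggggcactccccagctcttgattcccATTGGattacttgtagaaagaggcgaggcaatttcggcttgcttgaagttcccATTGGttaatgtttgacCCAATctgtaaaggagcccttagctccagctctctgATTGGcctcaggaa
Elovl5: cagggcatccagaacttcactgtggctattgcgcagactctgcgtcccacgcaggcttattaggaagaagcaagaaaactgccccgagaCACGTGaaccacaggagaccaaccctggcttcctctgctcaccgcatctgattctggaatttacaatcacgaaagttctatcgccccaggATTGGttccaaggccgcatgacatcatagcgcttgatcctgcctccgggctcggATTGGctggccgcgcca
Fasn: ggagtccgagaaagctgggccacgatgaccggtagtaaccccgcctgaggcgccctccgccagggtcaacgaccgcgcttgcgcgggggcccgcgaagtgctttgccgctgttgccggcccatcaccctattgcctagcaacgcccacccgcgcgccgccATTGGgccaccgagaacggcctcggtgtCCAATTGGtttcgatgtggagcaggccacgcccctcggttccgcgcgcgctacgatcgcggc
The Mvk stretch holds 5 CCAAT boxes, the Hmgcs1 stretch 3 beside the sterol element, the Fasn stretch 3 of which a pair overlaps on opposite strands, and the Elovl5 stretch 2 beside an E-box.

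The median range over the 17 samples was 1.14 on the log2 scale for the 37 members, 0.80 for all genes outside the dimmest 40%, and 0.61 for all genes, dim ones included, whose ranges RMA compresses. Mvk, Sc5d and Insig2 lay below the last of these. Fads1, the delta-5 desaturase of polyunsaturated fatty acids, had the widest range, from 8.20 to 12.08, with a pooled SD within groups of 1.14. Thrsp, a nuclear protein known as Spot 14 that promotes milk fat synthesis, followed with 7.51 to 10.50, and Lpin1, a phosphatidate phosphatase, with 9.55 to 12.32. Mvk, mevalonate kinase, was the steadiest, with a range of 0.55 and a pooled SD within groups of 0.10. Insig2 and Sc5d, the latter the lathosterol desaturase near the end of the cholesterol route, had ranges of 0.59 and 0.57.

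**Figure D1:**
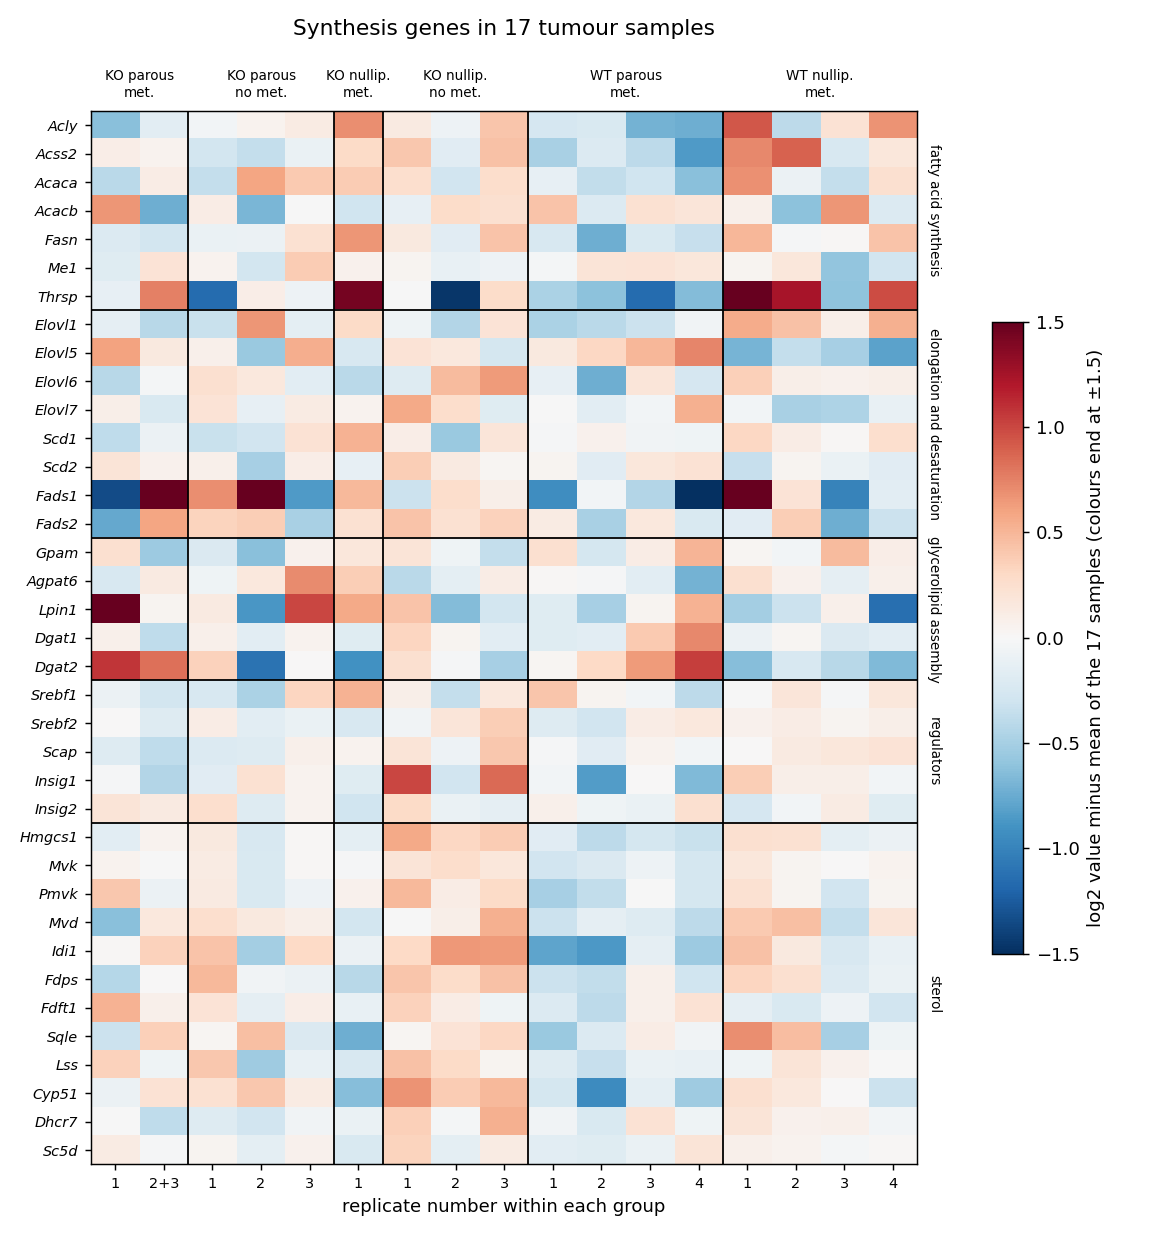
Log2 value of each of the 37 genes minus its mean over the 17 samples, with genes as rows ordered by role and samples as columns ordered by group, replicate 2+3 being the averaged pair. Fads1, Thrsp and Lpin1 show the strongest colours, and the sterol block is mostly red in nulliparous KO tumours without metastasis and mostly blue in parous WT tumours.

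Across the 6 groups, 0 of the 37 genes passed the limma F-test at a Benjamini-Hochberg adjusted p under 0.05, against 87 of 19938 genes (0.436%). At an unadjusted p under 0.05 there were 14 members, against 12.4% of all genes: 7 of 20 in the fatty acid arm, 6 of 12 in the sterol arm and 1 of 5 regulators. The smallest p-values belonged to Cyp51, the lanosterol demethylase (adjusted p = 0.102), Hmgcs1, which makes HMG-CoA (adjusted p = 0.109), and Mvk (adjusted p = 0.164). The count over all genes was 21 without nulliparous WT replicate 4 and 204 without parous KO replicate 2 without metastasis, with 0 members passing in either case.

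Parity in WT mice with metastasis set 4 parous against 4 nulliparous tumours. Elovl5, an elongase of polyunsaturated fatty acids, rose in parous tumours, and no other member passed the limma test. This count of 1 of 37 was close to the share over all genes (478 of 19938, 2.4%). At an unadjusted p under 0.05, 2 members had higher and 10 had lower values in parous tumours, 12 of 37 in all, where 16.2% of all genes reached that level. The fatty acid arm as a whole was split, with 10 of 20 genes below 0, while 11 of 12 sterol genes lay below 0. The count over all genes was 57 without nulliparous WT replicate 4 and 770, with 4 members, without parous KO replicate 2 without metastasis, a tumour that enters this contrast through the shared estimate of the spread.

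Elovl5 stood at 12.26, 12.43, 12.62 and 12.85 in parous WT tumours and at 11.42, 11.76, 11.62 and 11.32 in nulliparous ones. The groups did not overlap, every parous tumour lying above every nulliparous one. The group means were 12.54 ± 0.25 and 11.53 ± 0.20 (SD, n = 4 each), a log2 difference of 1.01 (SE 0.21, adjusted p = 0.0311, limma). The call ended without parous replicate 2 (1.05, adjusted p = 0.0534), 3 (0.99, adjusted p = 0.0934) or 4 (0.91, adjusted p = 0.095), and without nulliparous replicate 1 (0.97, adjusted p = 0.0895) or 4 (0.94, adjusted p = 0.106). With mean adipocyte and macrophage marker levels as covariates it was 0.78 (adjusted p = 0.145). The level of chromosome 9, which carries Elovl5, was -0.02 in parous and -0.03 in nulliparous WT tumours, as the median log2 deviation of its genes outside the dimmest 40%.

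Dgat2, which adds the last acyl chain to triglycerides, had the other high value. It read 9.49, 9.76, 10.10 and 10.50 in parous WT tumours and 8.82, 9.22, 9.05 and 8.80 in nulliparous ones. The groups again did not overlap, and the difference of 0.99 did not pass (SE 0.29, adjusted p = 0.0998). The related enzyme Dgat1 overlapped between the groups, with a difference of 0.30 (SE 0.19, adjusted p = 0.469). Elovl7, an elongase of saturated long chains, read 9.90, 9.74, 9.86 and 10.43 in parous and 9.86, 9.42, 9.44 and 9.79 in nulliparous tumours, overlapping, with a difference of 0.36 (SE 0.18, adjusted p = 0.371).

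The enzymes that supply and condense acetyl units stood lower in parous WT tumours without passing the test. Fasn, fatty acid synthase, read 11.32, 10.83, 11.33 and 11.22 in parous and 12.06, 11.55, 11.58 and 11.99 in nulliparous tumours. Its groups did not overlap, and the difference was -0.62 (SE 0.16, adjusted p = 0.0624). Acss2, which makes acetyl-CoA from acetate, read 8.94, 9.22, 9.03 and 8.58 in parous and 10.14, 10.31, 9.19 and 9.60 in nulliparous tumours. Here nulliparous replicate 3 lay among the parous values, and the difference was -0.87 (SE 0.22, adjusted p = 0.0624). Chromosome 2, which carries Acss2, had levels of -0.14 to 0.03 in parous and 0.05 to 0.14 in nulliparous WT tumours. The part of this level in the Acss2 value was not tested. Acly, ATP citrate lyase, ran from 9.97 to 10.48 in parous tumours and read 11.64, 10.31, 10.92 and 11.38 in nulliparous ones, with a difference of -0.83 (SE 0.24, adjusted p = 0.0947). The single nulliparous tumour among the parous values of Acly was replicate 2. Fasn and Acss2 passed with the dimmest genes left out (adjusted p = 0.0459 and 0.0428). They also passed with both near-identical arrays kept apart (adjusted p = 0.0438 each). That setting counts the pair as 2 independent samples and can understate the spread, so it adds no weight to either gene.

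Other members of the fatty acid arm went both ways. Thrsp read 8.50, 8.35, 7.82 and 8.32 in parous and 10.50, 10.21, 8.36 and 9.95 in nulliparous WT tumours, with a difference of -1.51 (SE 0.48, adjusted p = 0.126). Nulliparous replicate 3 again lay among the parous tumours. Elovl1, an elongase of saturated very long chains, did not overlap, with 10.75, 10.81, 10.90 and 11.17 in parous and 11.78, 11.66, 11.31 and 11.75 in nulliparous tumours. Its difference was -0.72 (SE 0.20, adjusted p = 0.0871). Genes of chromosome 4, where Elovl1 lies, stood at -0.17 ± 0.07 in parous WT tumours and at 0.24 ± 0.09 in nulliparous ones (SD, n = 4 each), and the part of this in the Elovl1 value was not tested. Acaca, the cytosolic acetyl-CoA carboxylase, stood at -0.48 (SE 0.25, adjusted p = 0.37), while its mitochondrial relative Acacb stood at 0.18 (SE 0.31, adjusted p = 0.857). Me1, malic enzyme, which supplies NADPH, stood at 0.31 (SE 0.17, adjusted p = 0.408). Differences of the desaturases Scd1, Scd2 and Fads2 lay between -0.20 and 0.21, with adjusted p from 0.517 to 0.918. Fads1 had means of 9.28 ± 0.81 and 10.29 ± 1.10 (SD, n = 4 each) in parous and nulliparous tumours, with overlap (adjusted p = 0.567).

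**Figure D2:**
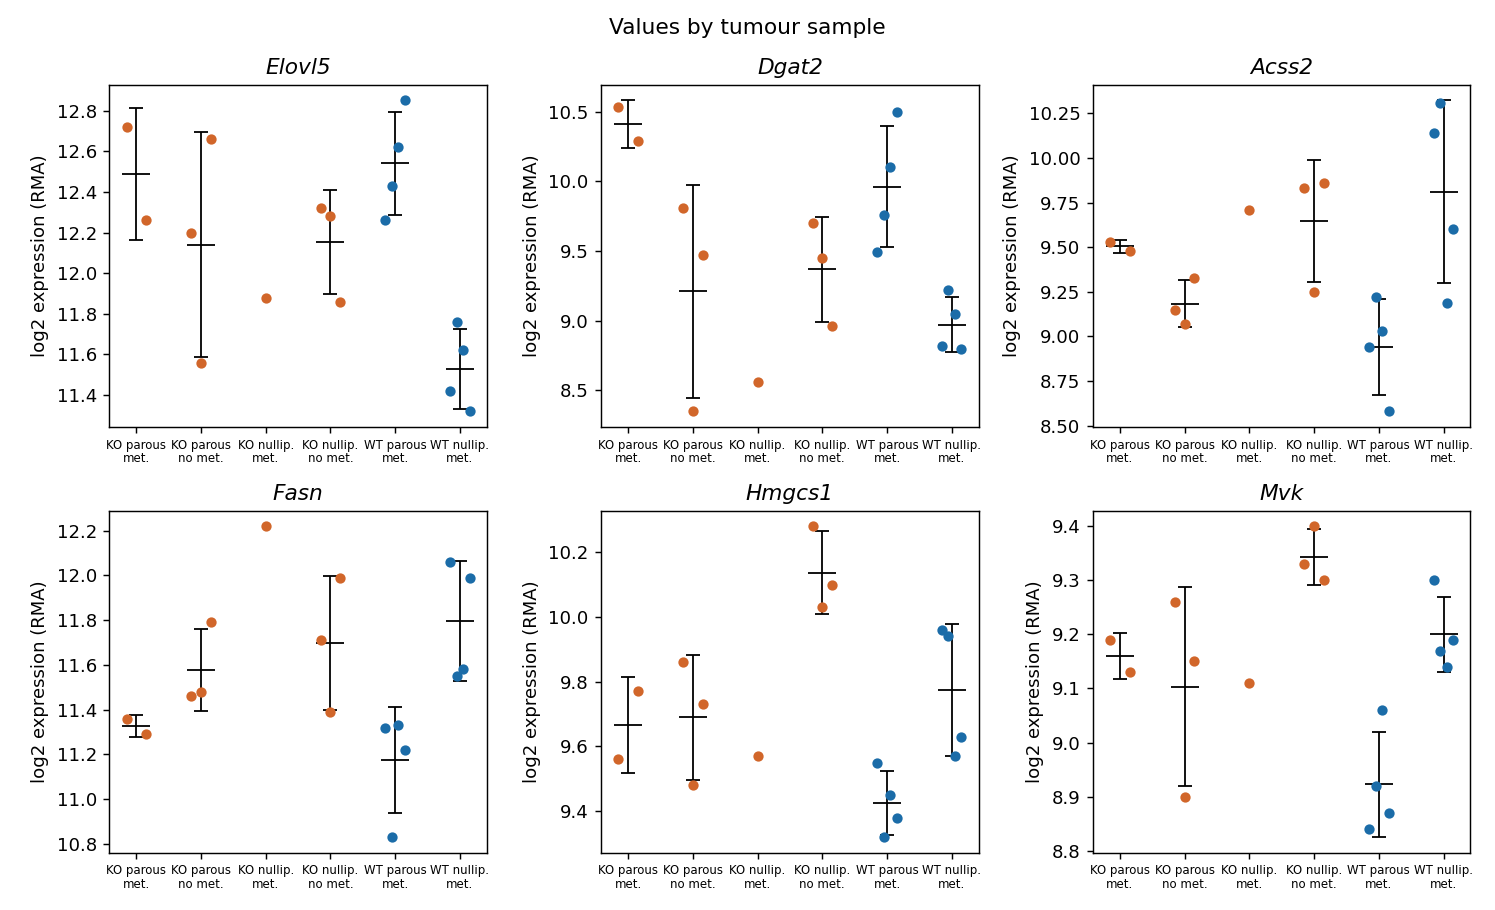
Log2 expression of 6 genes in each of the 17 tumour samples by group, KO in orange and WT in blue, with horizontal lines at group means and error bars of 1 SD (none for the single nulliparous KO tumour with metastasis); vertical axes do not start at 0. Elovl5 and Dgat2 are higher, and Fasn, Hmgcs1 and Mvk lower, in every parous than in every nulliparous WT tumour, and the KO groups without metastasis separate for Hmgcs1 and Mvk alone among the 6.

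In the sterol arm the differences were smaller and nearly all on one side. The median difference of the 12 sterol genes was -0.29, against -0.01 for all genes, of which 51.7% lay below 0. The 7 genes of fatty acid synthesis had a median of -0.62, elongation and desaturation -0.05, and glycerolipid assembly 0.30. The one sterol gene above 0 was Fdft1, squalene synthase, at 0.11 (SE 0.14, adjusted p = 0.782).

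Mvk read 8.84, 8.92, 9.06 and 8.87 in parous and 9.30, 9.17, 9.14 and 9.19 in nulliparous WT tumours. These groups did not overlap, and the difference was -0.28 (SE 0.08, adjusted p = 0.0771). Hmgcs1 read 9.55, 9.32, 9.45 and 9.38 against 9.96, 9.94, 9.57 and 9.63, with a difference of -0.35 (SE 0.11, adjusted p = 0.119). Its highest parous tumour lay just under its lowest nulliparous one. Cyp51 read 8.47, 7.79, 8.58 and 8.20 against 8.97, 8.89, 8.74 and 8.41, overlapping, with a difference of -0.49 (SE 0.17, adjusted p = 0.147). Idi1, the isomerase that yields the building unit of isoprenoids, read 8.74, 8.68, 9.40 and 8.99 against 9.98, 9.68, 9.30 and 9.43, with a difference of -0.64 (SE 0.22, adjusted p = 0.154). In Idi1 parous replicate 3 lay above the lowest nulliparous tumour. Mvd, which decarboxylates mevalonate diphosphate, stood at -0.43 (SE 0.19, adjusted p = 0.295).

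In WT mice, then, 2 of 37 members lay higher in parous tumours without overlap (Elovl5 and Dgat2), close to the share of all genes (4.98%). Lower without overlap were 5 members (Fasn, Elovl1, Hmgcs1, Mvk and Lss, the lanosterol synthase), where 7.63% of all genes did so.

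Most markers of other cells, and milk genes, also had lower values in parous WT tumours. Luminal epithelial markers did not shift as a list, with 5 of 9 genes below 0 and a median difference of -0.04. Adipocyte markers (16 measured) averaged 7.76 ± 0.35 (7.42 to 8.22) in parous WT tumours and 8.18 ± 0.49 (7.84 to 8.89) in nulliparous ones, with 14 of 16 genes below 0. Of them Lipe, hormone-sensitive lipase, fell by 0.70 on the log2 scale (SE 0.14, adjusted p = 0.0274). Macrophage markers lay at 9.17 ± 0.46 (8.77 to 9.80) and 9.67 ± 0.20 (9.40 to 9.86), with 12 of 12 below 0, and none passed. Milk genes lay at 10.28 ± 0.64 (9.45 to 11.02) and 10.92 ± 0.89 (9.80 to 11.96), with 14 of 16 below 0 (SD, n = 4 in each group). RMA gives no detection call, so no marker can be said to be at 0.

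T and NK cell markers, of immune lymphocytes, lay at 6.37 ± 0.09 in parous and 6.99 ± 0.46 in nulliparous WT tumours, with 11 of 11 genes below 0. Of these Nkg7, a protein of cytotoxic granules, fell by 1.48 (SE 0.34, adjusted p = 0.0385), and Ncr1, a receptor of NK cells, fell by 0.40 (SE 0.09, adjusted p = 0.042), both on the log2 scale. Fibroblast markers lay at 8.92 ± 0.85 and 9.82 ± 0.44 (11 of 11 below 0) and endothelial markers at 8.72 ± 0.36 and 9.02 ± 0.29 (10 of 10 below 0), with none passing. These values are means with their SD over 4 tumours in each group. Skeletal muscle markers ran from 7.10 to 8.42 in parous and from 7.09 to 11.04 in nulliparous tumours (12 of 12 below 0), again with none passing. Only the adipocyte and macrophage means were used as covariates, and the part of the other lists in the parity differences was not tested.

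Nulliparous WT replicate 1 stood apart in muscle markers, with a mean of 11.04 against 7.09 to 7.94 in the other nulliparous WT tumours. It was also the highest of its group in adipocyte (8.89), macrophage (9.86) and luminal epithelial markers (11.34) and in milk genes (11.96). The same held for the mean deviation of the 7 fatty acid synthesis genes (0.64). In fibroblast, endothelial, and T and NK cell markers this tumour was not the highest. Without it 66 of all genes and 0 members passed with parity in WT mice. Fasn then stood at -0.53 (adjusted p = 0.183), Acss2 at -0.76 (0.182), Mvk at -0.24 (0.215) and Dgat2 at 0.94 (0.226). The sterol median was -0.23 and the fatty acid median -0.09 without it. All of these kept their direction.

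With adipocyte and macrophage levels as covariates the sterol median was -0.31 and that of the fatty acid arm -0.11, beside -0.29 and -0.09 without them. The part of the milk genes in these differences was not tested.

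Further genes of the same pathways were counted from lists chosen with results of these data known. Of 27 other fatty acid genes, 3 passed in WT mice, where 2.4% of all genes did. Hsd17b12, the ketoacyl reductase of the elongation cycle, fell by 0.60 (SE 0.13, adjusted p = 0.0365). Aacs, which activates acetoacetate for lipid synthesis, fell by 0.67 (SE 0.15, adjusted p = 0.0377). Hacd2, a dehydratase of the elongation cycle, rose by 0.40 on the log2 scale (SE 0.09, adjusted p = 0.0381). Of 10 other sterol genes 0 passed and 1 reached an unadjusted p under 0.05, where 16.2% of all genes did. Their median was -0.14, with 6 of 10 below 0, where 51.7% of all genes lay below 0. In KO mice without metastasis 6 of these 10 genes lay below 0, with a median of -0.05, against -0.26 in the sterol arm. The one-sided direction of the 12 sterol members was thus not seen in these further sterol genes.

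Parity in KO mice without metastasis set 3 parous against 3 nulliparous tumours. No gene of the array passed limma's test (0 of 19938, 0%), so 0 of 37 members did. At an unadjusted p under 0.05 there were 4 members, all with lower values in parous tumours, against 3.29% of all genes: Hmgcs1, Dhcr7, Mvk and Scap. All 12 sterol genes lay below 0, with a median of -0.26, where the median of all genes was 0.01 and 47.4% lay below 0. The 7 genes of fatty acid synthesis had a median of -0.11.

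Hmgcs1 read 9.86, 9.48 and 9.73 in parous and 10.28, 10.03 and 10.10 in nulliparous KO tumours. The groups did not overlap, and the difference was -0.44 (SE 0.13, adjusted p = 1 after rounding). Dhcr7, which catalyses the last step to cholesterol, read 10.37, 10.28 and 10.52 against 10.93, 10.54 and 11.10, with a difference of -0.47 (SE 0.15, adjusted p = 1). The highest parous tumour lay just under the lowest nulliparous one. Mvk read 9.26, 8.90 and 9.15 against 9.33, 9.40 and 9.30, without overlap, with a difference of -0.24 (SE 0.09, adjusted p = 1). These 3 genes were the members that lay lower without overlap, where 2.9% of all genes did so. No member lay higher without overlap, where 3.14% of all genes did.

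Chromosome 13, which carries Hmgcs1 and Idi1, had a level of -0.43 in parous KO replicate 2, against 0.07 and 0.09 in the other parous and 0.06 to 0.10 in nulliparous KO tumours without metastasis. The same tumour had the lowest Hmgcs1 value of the 6. Without it Hmgcs1 stood at -0.34 (SE 0.13), Dhcr7 at -0.41 (SE 0.17) and Mvk at -0.14 (SE 0.08), each with adjusted p = 0.999, and the sterol median at -0.17. This tumour also had higher means than the other parous KO tumours without metastasis for macrophage (10.12, against 8.88 and 8.96) and fibroblast markers (10.35, against 9.01 and 9.05). The same held for endothelial (9.60, against 8.50 and 8.58) and luminal epithelial markers (11.72, against 11.34 and 11.11). Its adipocyte, skeletal muscle, and T and NK cell means lay between theirs. The part of the chromosome level and of cell content in these values was not tested.

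Elovl5, Dgat2 and Fasn, which did not overlap between the WT groups, overlapped here. Elovl5 read 12.20, 11.56 and 12.66 in parous and 12.32, 12.28 and 11.86 in nulliparous KO tumours, a difference of -0.01 (SE 0.25). Dgat2 stood at -0.16 (SE 0.34) and Fasn at -0.12 (SE 0.18). Acss2 read 9.15, 9.07 and 9.33 against 9.83, 9.25 and 9.86, with a difference of -0.46 (SE 0.26). The largest values above 0 by p were those of Agpat6, a glycerol-3-phosphate acyltransferase, at 0.41 (SE 0.22), Elovl1 at 0.16 (SE 0.23) and Fads1 at 0.59 (SE 0.85), each with adjusted p = 1. Agpat6 read 10.25, 10.47 and 11.02 against 9.91, 10.17 and 10.42. Without parous replicate 2 Elovl1 stood at -0.14 and Fads1 at -0.09, since that tumour had the highest value of both genes (11.88 and 12.08). Milk genes lay at 11.36 ± 0.42 in parous and 10.52 ± 0.41 in nulliparous KO tumours without metastasis (SD, n = 3 each), the opposite order to WT mice, and adipocyte markers at 7.86 ± 0.08 and 7.76 ± 0.12. Above 0 with parity in these KO mice lay 9 of 12 macrophage, 11 of 12 skeletal muscle and 9 of 10 endothelial markers. So did 7 of 11 T and NK cell and 6 of 9 luminal epithelial markers, while 9 of 11 fibroblast markers lay below 0. Of all genes 47.4% lay below 0. Parous replicate 2 had the highest macrophage (10.12) and endothelial (9.60) means of these tumours. The other parous means (macrophage 8.88 and 8.96, endothelial 8.50 and 8.58) lay within the nulliparous ranges (8.65 to 9.28 and 8.48 to 8.89).

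The parity contrasts in WT and KO mice share no sample. In both, 11 of the 12 sterol genes were lower in parous tumours (91.7%), and 4 of 5 regulators, where 23.9% of all genes were lower in both. In the fatty acid arm 5 of 20 genes (25%) were lower in both and 2 higher in both. Over all 37 members 20 were lower in both (54.1%). The mean deviation of the 12 sterol genes from their 17-sample means was -0.32, -0.39, -0.05 and -0.20 in parous and 0.23, 0.15, -0.14 and -0.06 in nulliparous WT tumours. It was 0.19, -0.11 and 0.01 in parous and 0.35, 0.21 and 0.32 in nulliparous KO tumours without metastasis. The WT groups overlapped on this measure and the KO groups did not. In these counts sterol genes are not independent of one another, and no test was made on them.

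**Figure D3:**
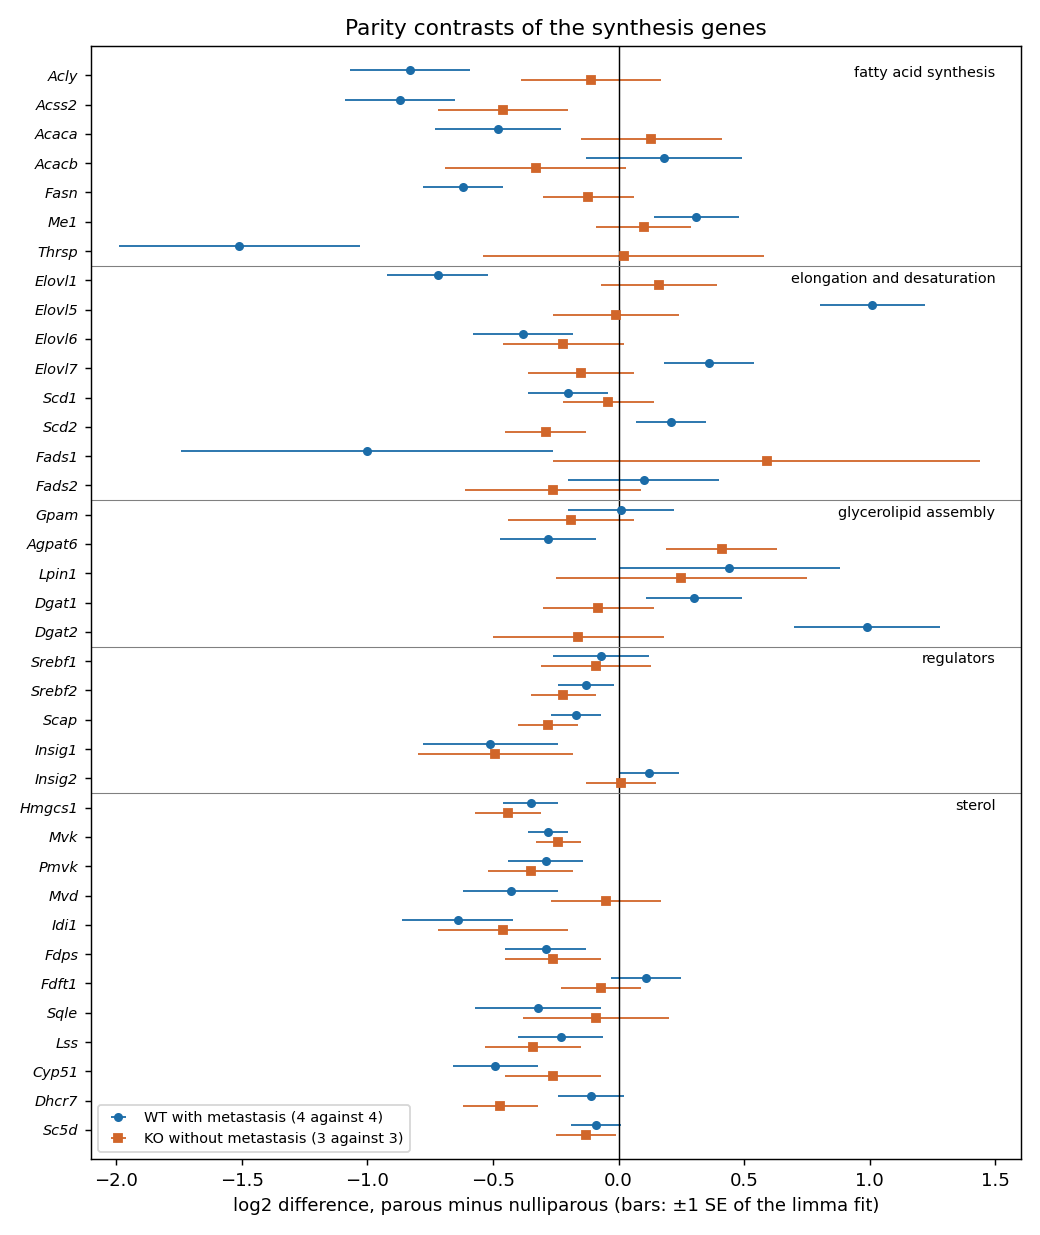
Log2 difference, parous minus nulliparous, of each of the 37 genes in WT mice with metastasis (circles, 4 against 4 tumours) and KO mice without metastasis (squares, 3 against 3), with bars of 1 SE of the limma fit. Sterol genes lie left of 0 in both contrasts except Fdft1 in WT mice, and Elovl5 and Dgat2 lie near 1 in WT and near 0 in KO mice.

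The difference between the parity contrasts (KO without metastasis minus WT with metastasis) was tested directly, and 0 of 37 members passed, as did 0 of all genes (0%). At an unadjusted p under 0.05 there were 5 members, 2 above and 3 below 0, against 9.64% of all genes. Elovl5 stood at -1.02 (SE 0.33, adjusted p = 0.366), Dgat2 at -1.15 (SE 0.45, adjusted p = 0.427) and Scd2, a stearoyl-CoA desaturase, at -0.49 (SE 0.21, adjusted p = 0.478). Above 0 were Elovl1 at 0.88 (SE 0.31, adjusted p = 0.405) and Agpat6 at 0.69 (SE 0.30, adjusted p = 0.478), with Thrsp at 1.53 (SE 0.74, adjusted p = 0.534) next. Scd2 read 13.03, 12.46 and 13.05 in parous and 13.32, 13.09 and 12.98 in nulliparous KO tumours. In WT tumours it read 13.00, 12.78, 13.12 and 13.17 against 12.61, 13.00, 12.85 and 12.78. The median of the sterol arm was -0.00 and that of the fatty acid arm -0.02. Genotype and metastasis status cannot be told apart in this difference.

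A parity term fitted over all 17 samples beside genotype and metastasis used the same tumours as the contrasts above. By limma 0 of 37 members passed (0 of all genes, 0%), and 14 reached an unadjusted p under 0.05, 2 higher and 12 lower in parous tumours, against 12.7% of all genes. Elovl5 stood at 0.58 (SE 0.18, adjusted p = 0.207), Dgat2 at 0.71 (SE 0.26, adjusted p = 0.268) and Insig2 at 0.14 (SE 0.09, adjusted p = 0.571). The smallest p-values below 0 were those of Acss2 at -0.62 (SE 0.16, adjusted p = 0.138), Fasn at -0.48 (SE 0.13, adjusted p = 0.147) and Mvk at -0.21 (SE 0.06, adjusted p = 0.157). Single KO tumours bore on these calls. Without parous KO replicate 2 without metastasis 337 of all genes (1.69%) and 3 members passed, among them Elovl5 (0.72, adjusted p = 0.0292) and Dgat2 (0.92, adjusted p = 0.0378). Without nulliparous KO replicate 2 without metastasis 369 of all genes (1.85%) and again 3 members passed, among them Acss2 (-0.69, adjusted p = 0.0387) and Fasn (-0.56, adjusted p = 0.0302).

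No regulator passed in any comparison. Srebf1, which encodes the SREBP forms best known for fatty acid genes, stood at -0.07 (SE 0.19) with parity in WT and -0.09 (SE 0.22) in KO mice. Srebf2, whose product is best known for sterol genes, stood at -0.13 (SE 0.11) and -0.22 (SE 0.13). Scap stood at -0.17 (SE 0.10) and -0.28 (SE 0.12), and at -0.24 (SE 0.07, adjusted p = 0.17) with parity in the additive fit. In KO mice Scap read 10.46, 10.48 and 10.75 in parous and 10.86, 10.59 and 11.07 in nulliparous tumours, with overlap. Insig1, itself a known SREBP target that feeds back on the pathway, stood at -0.51 (SE 0.27) and -0.49 (SE 0.31), and its values ran from 9.30 to 11.14 over all samples. Insig2 stood at 0.12 (SE 0.12) and 0.01 (SE 0.14).

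Within groups, pairs of sterol genes had a higher mean correlation than pairs of fatty acid genes. Correlations were taken over 16 samples as deviations from group means, leaving out the lone nulliparous KO tumour with metastasis, and are given as descriptions. Points share arrays, RNA quality and cell content. The mean Pearson r was 0.32 over the 66 pairs of sterol genes, 0.23 over the 21 pairs of fatty acid synthesis genes, 0.08 over the 190 pairs of the whole fatty acid arm and 0.027 over all pairs of genes. Between sterol and fatty acid synthesis genes it was 0.14. Srebf2 had a mean r of 0.30 with the 12 sterol genes (12 of 12 above 0) and of -0.05 with the 7 fatty acid synthesis genes. Srebf1 had the reverse order, 0.31 with the fatty acid synthesis genes (7 of 7 above 0) and 0.04 with the sterol genes. The difference between these means was not tested.

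Genotype was compared in parous mice with metastasis, 2 KO samples against 4 WT samples. No gene passed by limma (0 of 37 members, 0% of all genes), and 4 members reached an unadjusted p under 0.05, all higher in KO and all of the sterol arm, against 5.73% of all genes. Idi1 read 9.55 and 9.88 in KO and 8.74, 8.68, 9.40 and 8.99 in WT tumours. Every KO sample lay above every WT sample, and the difference was 0.76 (SE 0.27, adjusted p = 0.825). With so few samples groups can separate by chance, and the share of all genes without overlap in this contrast was not counted. Cyp51 read 8.64 and 8.95 in KO, above all 4 WT values listed earlier, with a difference of 0.53 (SE 0.20, adjusted p = 0.832). Mvk read 9.19 and 9.13, also above all WT values, with 0.24 (SE 0.09, adjusted p = 0.837). Pmvk, phosphomevalonate kinase, read 9.01 and 8.52 against 8.11, 8.23, 8.60 and 8.34, overlapping, with 0.45 (SE 0.18, adjusted p = 0.846). The sterol median was 0.24 with 11 of 12 genes above 0, where the median of all genes was -0.03. The WT tumours in this contrast are the parous WT tumours of the parity contrast, so the same low sterol values enter both.

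On the other side of 0 in this contrast were Scap at -0.24 (SE 0.12, adjusted p = 0.907), Dgat1 at -0.35 (SE 0.23, adjusted p = 0.926) and Gpam, the mitochondrial glycerol-3-phosphate acyltransferase, at -0.30 (SE 0.26, adjusted p = 0.952). Scap read 10.48 and 10.29 in KO and 10.65, 10.50, 10.72 and 10.63 in WT tumours, without overlap. Dgat1 read 10.10 and 9.64 against 9.84, 9.86, 10.42 and 10.74, with overlap. Chromosome 15, which carries Dgat1, Srebf2 and Sqle, had a level of 0.32 in parous WT replicate 4, against 0.12 or less in the other parous WT tumours, and its part in the Dgat1 value was not tested. Gpam read 10.02 and 9.24 against 10.02, 9.52, 9.89 and 10.29, and without the averaged KO pair its difference was 0.09.

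Metastasis was compared in parous KO mice, 2 samples with against 3 without. By limma 0 of 37 members passed (0% of all genes) and 1 reached an unadjusted p under 0.05, against 4.04% of all genes. This was Dgat2, at 10.53 and 10.29 with and 9.81, 8.35 and 9.47 without metastasis. Both samples with metastasis lay above the others, and the difference was 1.20 (SE 0.38, adjusted p = 0.967). Here too the share of all genes without overlap was not counted, and groups this small can separate by chance. Lpin1 read 12.32 and 10.73 against 10.82, 9.81 and 11.69, with 0.76 (SE 0.56, adjusted p = 0.967). That value rested on replicate 1, and without it stood at -0.04. Below 0 were Mvd at -0.40 (SE 0.25), Fdps, farnesyl diphosphate synthase, at -0.33 (SE 0.21) and Acly at -0.44 (SE 0.31), each with adjusted p = 0.967. Mvd read 7.86 and 8.65 against 8.74, 8.63 and 8.58, and without replicate 1 stood at 0.00. Chromosome 8, which carries Mvd, had a level of -0.32 in replicate 1 with metastasis, against 0.07 in the averaged pair and -0.00 to 0.13 without metastasis, and its part in the Mvd value was not tested. That level was also low, at -0.41, in parous WT replicate 4, where Mvd read 8.10. Scd2 stood at 0.24 (SE 0.18, adjusted p = 0.967).

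The lone nulliparous KO tumour with metastasis had low sterol and high fatty acid synthesis values. Its mean sterol deviation was -0.24, against 0.35, 0.21 and 0.32 in nulliparous KO tumours without metastasis. Its mean deviation over the 7 fatty acid synthesis genes was 0.46, against 0.12, -0.29 and 0.28. Cyp51 stood at 8.09 there and at 9.40, 9.11 and 9.22 in the others, and Fasn at 12.22 against 11.71, 11.39 and 11.99. It also had the highest mean of milk genes of all 17 samples, 12.04. With 1 tumour there is no test, and the part of the milk genes was not tested.

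The additive fit gave no passing member for genotype or metastasis either (0 of all genes, 0%, for both). For genotype 2 members reached an unadjusted p under 0.05, against 4.44% of all genes: Lpin1 at 0.95 (SE 0.39) and Pmvk at 0.31 (SE 0.14), each with adjusted p = 0.999. For metastasis 4 members did, against 5.01%: Fdps at -0.49 (SE 0.17, adjusted p = 0.89), Cyp51 at -0.52 (SE 0.22, adjusted p = 0.983), Elovl6, which elongates palmitate, at -0.44 (SE 0.21, adjusted p = 0.983) and Thrsp at 1.22 (SE 0.52, adjusted p = 0.983). Genotype and metastasis are separated in this fit by KO mice alone. The sterol median with metastasis was -0.16 with 10 of 12 genes below 0, where 60.2% of all genes lay below 0. That median was 0.03 without the lone nulliparous KO tumour with metastasis. The sterol median with genotype was 0.09, and 0.25 without that tumour.

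**Figure D4:**
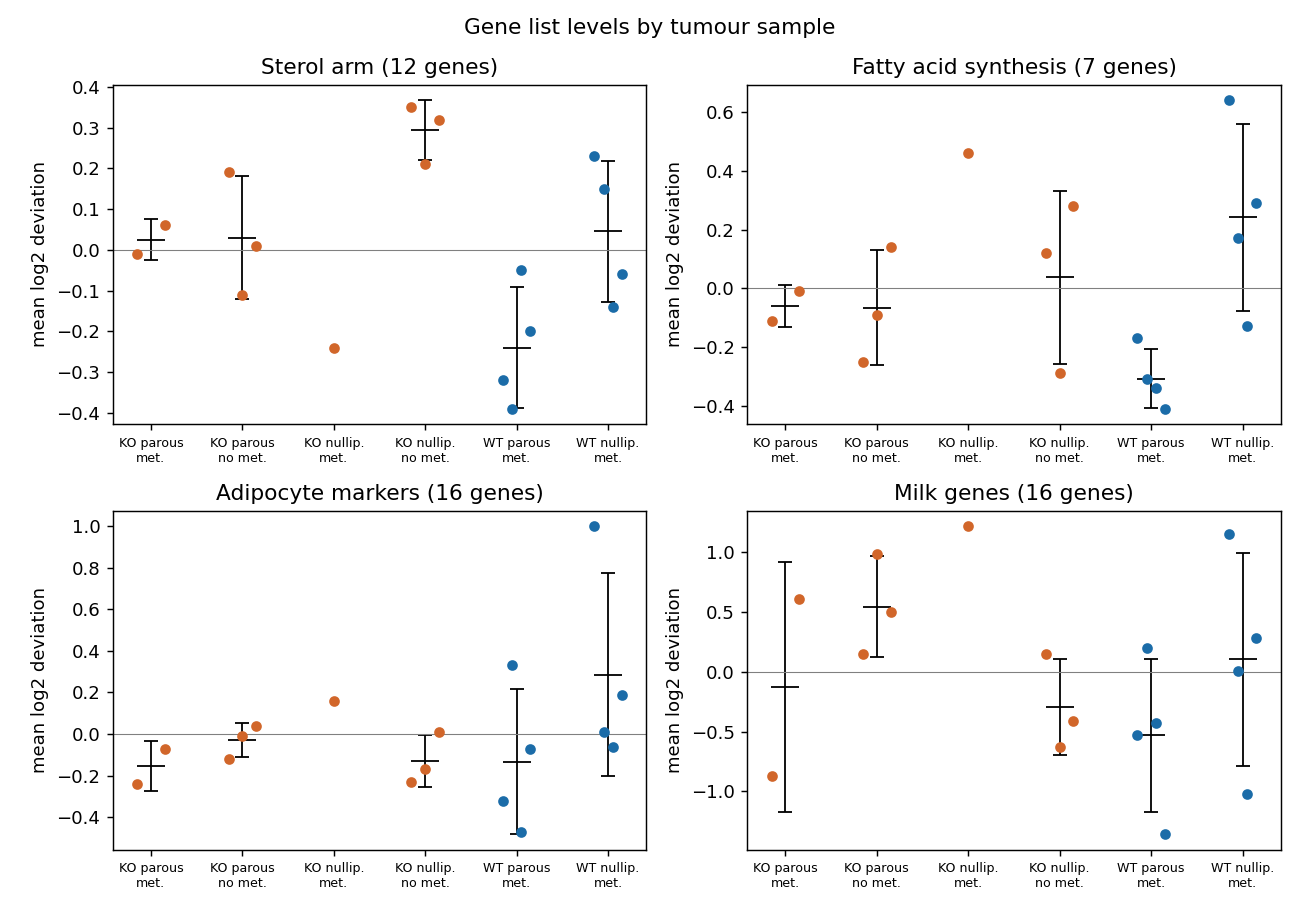
Mean log2 deviation of 4 gene lists from their means over the 17 samples, by group, KO in orange and WT in blue, with horizontal lines at group means and error bars of 1 SD; the 4 vertical axes differ in scale. The sterol genes of the nulliparous KO tumours without metastasis (0.21 to 0.35) lie above those of both KO parous groups, and the single nulliparous KO tumour with metastasis is low for sterol genes (-0.24) and high for fatty acid synthesis (0.46) and milk genes (1.22).

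The remaining members are given by their ranges, except Lss. In WT mice Lss read 9.79, 9.64, 9.89 and 9.88 in parous and 9.92, 10.18, 10.05 and 9.98 in nulliparous tumours. These groups did not overlap, and the difference of -0.23 did not pass (SE 0.17, adjusted p = 0.56, limma). In KO mice its difference was -0.34 (SE 0.19), with overlap. Fads2, the delta-6 desaturase, ran from 10.31 to 11.67, with both extremes in parous KO mice with metastasis. The same samples read 8.78 and 11.77 for Fads1, in the same order. Scd1, the main stearoyl-CoA desaturase, ran from 12.95 to 14.03, with its highest value in the lone nulliparous KO tumour with metastasis. Sqle, squalene epoxidase, ran from 9.70 to 11.13, Lss from 9.46 to 10.43 and Sc5d from 10.18 to 10.75. Srebf1 ran from 11.68 to 12.67, Acacb from 7.81 to 9.20 and Me1 from 12.19 to 13.17. For the genes with more than 1 probe set, both probe sets gave the same direction in the parity contrasts, except Fdft1 in KO mice (0.03 and -0.07).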

How the data were processed

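RNA of 18 mammary tumours was measured on single-colour Affymetrix arrays. The authors deposited log2 expression values of 35556 probe sets, made with RMA and the oligo package per the submitters' processing notes without versions. RMA subtracts background, equalises array quantiles and compresses dim genes. Precision is limited by the number of arrays, which have no read depth.

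The platform annotation gave 21789 probe sets 1 gene, 1621 several and 12146 none. One-gene probe sets were used, the brightest per gene, leaving 19938 genes, of which 19855 matched RefSeq genes of GRCm38.p6 by Entrez identifier. Promoter sequences are from RefSeq for that build, while no source used here states the platform's build.

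Tests were 2-sided and ran over all genes and 17 samples in limma 3.58.1 (R 4.3.3), with 11 residual degrees of freedom in the fit of 6 group means. In each of 9 comparisons a gene passed at a Benjamini-Hochberg adjusted p under 0.05. The code was tested on simulated data. The labels call the arrays biological replicates. Up to 3 members in each direction with the smallest p were named per comparison, and up to 4 passing members of the other pathway lists. Members and lists were chosen with earlier results of these data known. Alternatives were 8 other settings and leaving out each of the 17 samples.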

Additional observations from a re-analysis of the deposited data

Results flagged for a closer look

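In groups of 4 tumours, each gene and gene list was checked for a single sample far from the other 3, by the ratio of its gap to the group's range (critical value 0.829). Of 100 such checks 4 exceeded it, and chance alone passes about 1 in 20. Me1, malic enzyme, stood at 12.76 in parous WT replicate 1, below the other parous WT tumours at 12.96 to 12.99. Fdps, farnesyl diphosphate synthase, stood at 10.47 in parous WT replicate 3, above the others at 10.02 to 10.09. Elovl6, the palmitate elongase, stood at 10.91 in nulliparous WT replicate 1, above the others at 10.61 to 10.64. The mean of skeletal muscle markers stood at 8.42 in parous WT replicate 2, above the others at 7.10 to 7.26.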

How the results depend on the processing

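Most results kept their direction and their side of the threshold under the 8 other settings and with each sample left out; the exceptions follow, and where no value below shows it the cause was not tested. With the near-identical arrays kept apart, which counts the pair as 2 independent samples, 200 genes in place of 87 differed among the 6 groups. In that setting 3 members in place of 1 passed with parity in WT mice, and 55 and 2 genes in place of 0 passed for additive parity and metastasis. With the dimmest 40% of genes left out the first counts were 50 and 3. With adipocyte and macrophage means as covariates they were 8 and 0, WT parity calls were 36 in place of 478, and the fatty acid median of the parity difference was 0.14 in place of -0.02. Replicate numbers did not pair the samples (same-numbered median r 0.01 over 27 pairs, different-numbered 0.01 over 74). With the replicate number as a block, which leaves out the lone tumour, 0 genes differed among the 6 groups and 212 genes and 0 members passed in WT parity (Elovl5 1.01, adjusted p = 0.0666). That block gave a genotype fatty acid median of 0.01 in place of 0.14, a metastasis sterol median of 0.01 in place of -0.16, and Srebf2 with genotype at 0.06 in place of -0.13. The stricter sterol element took the share of promoters from 2.56% to 0%. With single samples left out, calls among the 6 groups ran from 21 to 204. WT parity calls then ran from 57 to 770 with 0 to 4 members, and additive parity calls from 0 to 369 with 0 to 3 members. Calls ran from 0 to 2 for KO parity, 0 to 8 for the parity difference, 0 to 17 for genotype and 0 to 5 for metastasis in parous mice, and 0 to 1 for additive metastasis. Medians ran from -0.16 to 0.04 (KO parity, fatty acid), -0.14 to 0.17 (parity difference, fatty acid), -0.18 to 0.02 and -0.03 to 0.25 (additive genotype, regulators and sterol) and -0.25 to 0.03 (additive metastasis, sterol). Among single genes Lpin1 (-0.04 to 1.55, with 1.22 without parous KO replicate 3 without metastasis) and Mvd (-0.79 to 0.00, with -0.43 there) with metastasis in parous KO mice, Gpam with genotype (-0.69 to 0.09), and Elovl1 (-0.14 to 0.36, -0.00 without nulliparous KO replicate 2) and Fads1 (-0.09 to 1.32) with KO parity changed sign. Groups of 2 to 4 tumours, a lone tumour in 1 group and the absence of WT tumours without metastasis limit every comparison.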
